A study of Rattus norvegicus with 48 samples.

Results

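Dbp (ENSRNOG00000021027), Tef (ENSRNOG00000019383) and Nfil3 (ENSRNOG00000011668) were taken by their Ensembl identifiers from the gene tables of rat left ventricle, where they are 3 of 32883 genes. Each of the 3 was detected in every library and passed the low-count filter, as did 14412 genes in all. The 8 groups were female and male Sprague Dawley rats injected under the skin with saline or with methamphetamine, a psychostimulant, at 5 mg/kg/day for 10 days from 8 weeks of age, with hearts taken either on day 11, when 24 hours had passed since the final injection, or 30 days after it (abstinence). The labels give no engineered allele, and the saline rats were injected on the same schedule without the drug. Each group held 6 rats with 1 library each, except the female saline group at day 11, whose replicate 3 was not analysed here, giving 47 libraries of separate rats. Per the study's methods every heart was collected in the same morning window, and the collection time of each single heart was not used here.

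DBP (D-site of albumin promoter binding protein) and TEF (thyrotroph embryonic factor) belong with HLF to the PAR bZIP family of transcription factors, which bind the D-box, a short DNA element, and activate the genes that carry it. NFIL3, also called E4BP4, binds the same element and represses those genes. In the circadian clock, CLOCK and BMAL1 drive Dbp and Tef through E-boxes, REV-ERB proteins (Nr1d1, Nr1d2) hold Nfil3 down, and activators and repressor therefore usually peak at opposite times of day in tissues such as heart and liver.

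Library totals ran from 6661581 to 11314050 counts (median 9020989). The 8 libraries whose titles end in -5 went against their sex labels. In the 4 libraries labelled female, replicate 5, the summed level of 4 male-specific genes was 85.8 to 115% of the male median, against at most 2.52% in the other 19 libraries labelled female. In the 4 libraries labelled male, replicate 5, it was 7.31 to 12.1%, against at least 70.9% in the other 20. These genes were picked from the counts by the labels, with a median of at least 20 counts in males and at most 1 in females. The 2 genes picked for females gave 4.03 to 12.9% of the female median in libraries labelled female, replicate 5, against at least 39.2% in the other 19. In those labelled male, replicate 5, they gave 76.9 to 108%, against at most 4.85% in the other 20. The reversal left a remainder. In libraries labelled male, replicate 5, the male-specific genes (7.31 to 12.1%) lay above the other libraries labelled female (at most 2.52%). In those labelled female, replicate 5, the female genes reached 12.9%, above the 4.85% of the other libraries labelled male. The source of this remainder was not tested. The treatment labels of replicate 5 libraries could not be checked in this way. These 8 libraries are called replicate 5, their values are given apart, and the methamphetamine effects on the 3 genes are given with them and from the 39 others. Myl4, the single atrial muscle marker of 4 that could be matched, and Ptprc, the single leukocyte marker of 4, are given beside the results where they moved with a group. The ventricular, endothelial and fibroblast markers could not be matched to identifiers and were not analysed. Because this was bulk tissue, fewer cells of a type and less RNA per cell cannot be told apart. The hearts of day 11 and of abstinence were sequenced as separate pools, so time point and pool cannot be told apart.

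The members differed in how far they ranged. Levels are CPM (read counts scaled to a library of 1000000 counts, with TMM library factors), which are not corrected for gene length, so levels were compared within a gene and not between genes. Over the 47 libraries Dbp ran from 9.85 to 187 CPM, a 19.0-fold range resting on 91 to 1917 counts. Tef ran from 55.6 to 295 CPM, a 5.31-fold range on 463 to 3386 counts. For Nfil3 the range was 9.69 to 33.8 CPM, 3.49-fold, on 88 to 307 counts. The lowest Dbp libraries held fewer counts of Dbp than of Nfil3. In saline females at day 11, replicate 1 held 102 counts of Dbp and 303 of Nfil3. In saline males after abstinence, replicate 3 held 91 and 212.

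**Figure D1:**
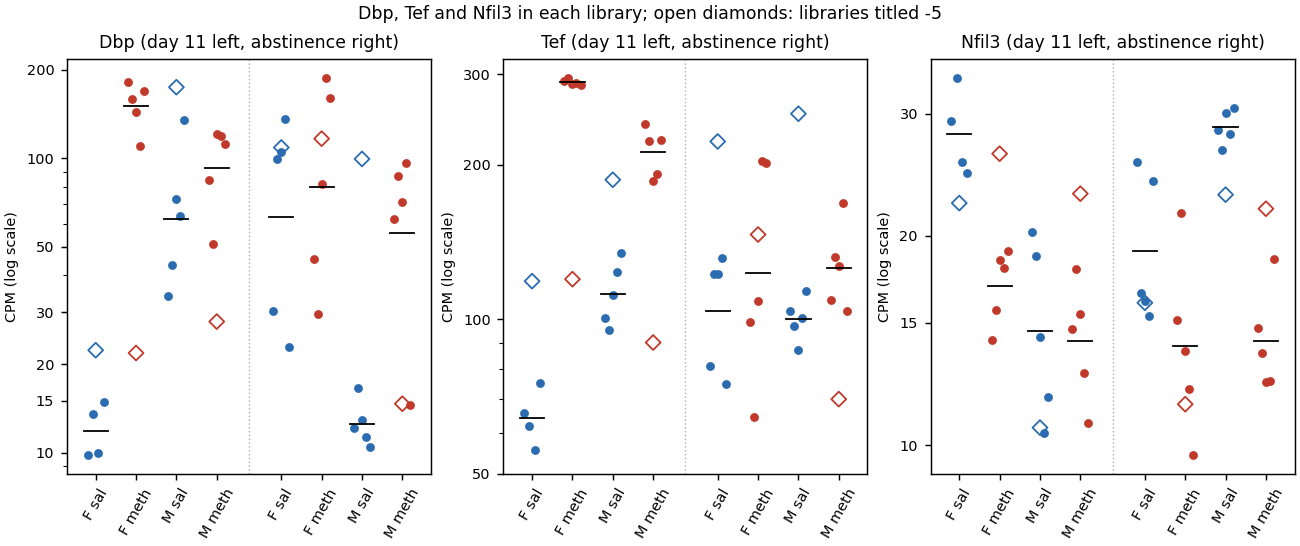
Level of Dbp, Tef and Nfil3 in each of the 47 libraries, in CPM on a log scale, by group (F female, M male, sal saline, meth methamphetamine; day 11 left of the dotted line, abstinence right). Filled points are libraries other than replicate 5, open diamonds are replicate 5, and each bar is the geometric mean of the filled points. In females at day 11 the filled methamphetamine points of Dbp (110.4 to 182) and Tef (286 to 295) lie above all filled saline points (at most 14.9 and 75.2), and those of Nfil3 lie below.

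The stretches directly before the RefSeq start sites of the 3 genes are shown because published control of this circuit acts through short promoter elements. In these libraries the levels of the 3 genes were correlated, Nfil3 inversely, and the part of such elements in this was not tested. The promoter of Per2, a repressor of the clock, is shown beside them as the one among the named clock genes whose stretch holds a D-box. Each run is 250 bases on the GRCr8 assembly, 5′ to 3′ along the gene, at chr1:105312006-105312255 (+) for Dbp, chr7:115206577-115206826 (+) for Tef, chr17:12432126-12432375 (+) for Nfil3 and chr9:99496994-99497243 (-) for Per2. Capitals mark the elements found, searched on both strands: the D-box spelled TTATGTAA or TTACGTAA, the E-box CACGTG, the E′-box CACGTT and AGGTCA, the core of the element that REV-ERB and ROR proteins bind.
Dbp: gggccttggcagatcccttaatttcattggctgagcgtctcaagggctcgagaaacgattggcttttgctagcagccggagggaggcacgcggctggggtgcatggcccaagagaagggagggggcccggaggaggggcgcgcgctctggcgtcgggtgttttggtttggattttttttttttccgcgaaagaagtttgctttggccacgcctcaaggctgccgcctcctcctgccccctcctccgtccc
Tef: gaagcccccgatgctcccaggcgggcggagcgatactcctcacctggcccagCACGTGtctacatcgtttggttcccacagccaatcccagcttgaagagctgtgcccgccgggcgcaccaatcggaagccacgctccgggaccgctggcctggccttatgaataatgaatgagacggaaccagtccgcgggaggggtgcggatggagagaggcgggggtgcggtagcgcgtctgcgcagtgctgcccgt
Nfil3: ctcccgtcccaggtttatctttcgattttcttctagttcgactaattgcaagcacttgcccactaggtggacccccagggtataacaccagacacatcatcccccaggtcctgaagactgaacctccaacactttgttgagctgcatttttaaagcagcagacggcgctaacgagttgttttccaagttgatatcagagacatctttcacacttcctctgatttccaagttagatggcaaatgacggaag
Per2: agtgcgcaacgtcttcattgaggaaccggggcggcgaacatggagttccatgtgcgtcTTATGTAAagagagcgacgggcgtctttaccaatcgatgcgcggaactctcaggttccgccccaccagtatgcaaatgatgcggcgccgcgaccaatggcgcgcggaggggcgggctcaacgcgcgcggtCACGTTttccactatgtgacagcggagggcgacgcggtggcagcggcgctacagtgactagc
Tef carried 1 E-box, at positions -198 to -193 counted from the start, and the Dbp and Nfil3 stretches held none of these letters. Per2 carried the D-box TTATGTAA at positions -192 to -185 and an E′-box at positions -62 to -57. Of 33469 rat promoters of the same length, 0.932% held a D-box, 5.59% an E-box, 4.07% an E′-box and 14.1% AGGTCA. Among the 13 of 14 named genes with a promoter in the table (Cry1 was not matched), the E-box was in Nr1d1 and Tef, the E′-box in Cry2, Nr1d1 and Per2, and AGGTCA in Bmal1 (Arntl), Nr1d2, Por and Usp2. A match here is a match of letters and not a bound site, and elements further away were not searched.

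The first question was how methamphetamine changed each gene within a sex and time point. In females at day 11, both activators were higher and the repressor was lower in methamphetamine-treated hearts. Dbp in the 4 saline libraries other than replicate 5 was 9.85, 13.6, 10.0 and 14.9 CPM, and in the 5 methamphetamine libraries 182, 159, 144, 110.4 and 169 CPM. Replicate 5 was 22.3 CPM in the library labelled saline and 21.8 CPM in the library labelled methamphetamine. Every methamphetamine library but replicate 5 therefore exceeded every saline library. The mean was 12.1 ± 2.55 CPM in saline (SD, n = 4) and 153 ± 27.6 CPM in methamphetamine (SD, n = 5). Dbp rose by 3.23 ± 0.41 on the log2 scale (± standard error) with all libraries (edgeR quasi-likelihood test, Benjamini-Hochberg adjusted p = 0.00108), and by 3.66 ± 0.16, 12.7-fold, without replicate 5 (adjusted p = 1.02e-09).

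Tef, the activator with the narrower range, moved the same way in these hearts. Its saline libraries held 65.7, 61.8, 55.6 and 75.2 CPM and its methamphetamine libraries 291, 295, 287, 289 and 286 CPM, with replicate 5 at 119 and 119.6 CPM. The 5 methamphetamine values were almost level, at 289.8 ± 3.80 CPM (SD, n = 5), and did not overlap with saline at 64.6 ± 8.19 CPM (SD, n = 4). Tef rose by 1.80 ± 0.23 (edgeR adjusted p = 0.00108) with all libraries and by 2.16 ± 0.07, 4.48-fold, without replicate 5 (adjusted p = 7.99e-11). By p-value it ranked 8th of 13890 genes with all libraries, and Dbp ranked 11th.

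Nfil3 moved the opposite way and by less. Saline libraries held 29.3, 33.8, 25.6 and 24.6 CPM and methamphetamine libraries 14.2, 15.6, 18.5, 18.0 and 19.0 CPM, with replicate 5 at 22.3 and 26.3 CPM. Each of the 5 methamphetamine libraries lay below every saline library, whereas the library labelled methamphetamine, replicate 5, lay above 3 of the 5 saline libraries. Nfil3 fell by 0.55 ± 0.14 with all libraries (edgeR adjusted p = 0.052) and by 0.73 ± 0.11 without replicate 5 (adjusted p = 0.000698), from 28.3 ± 4.15 CPM (SD, n = 4) to 17.0 ± 2.07 CPM (SD, n = 5). So 3 of 3 members passed the threshold of adjusted p under 0.1 in this comparison, where 4.18% of all genes tested did with all libraries and 9.43% without replicate 5. With all libraries the Nfil3 call held in 5 of 11 fits that left out 1 library and in 11 of 14 alternatives, and it was lost in 1 fit over all libraries (edgeR adjusted p = 0.132). The atrial marker Myl4 also moved here: its lowest, median and highest levels were 2.19, 13.8 and 90.7 CPM in saline and 1.55, 3.65 and 5.62 CPM in methamphetamine (log2 difference -3.04 ± 0.69, edgeR adjusted p = 0.0291). Its part in the results for the 3 genes was not tested.

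In males at day 11, Tef was higher after methamphetamine once replicate 5 was left out, and neither Dbp nor Nfil3 passed the test. Tef in saline was 100.3, 95.3, 111, 123 and 134 CPM and in methamphetamine 239.5, 223, 186, 192 and 223 CPM, without overlap. Replicate 5 stood the other way round, at 187 CPM in the library labelled saline and 90.0 CPM in the library labelled methamphetamine. The log2 difference was 0.61 ± 0.20 with all libraries (edgeR adjusted p = 0.277) and Tef rose by 0.91 ± 0.10, 1.88-fold, without replicate 5 (adjusted p = 0.00408). It then had the lowest p-value of the 13887 genes tested. With all libraries 0% of genes passed by edgeR (0 of 13753, with 2020 at an unadjusted p under 0.05, and 163 calls by DESeq2), and without replicate 5 it was 6.54%.

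Dbp in these males was already high and spread widely in saline. It measured 34.1, 43.3, 72.8, 63.6 and 135 CPM in saline and 84.4, 51.1, 121, 119 and 112 CPM in methamphetamine, so the groups overlapped. Replicate 5 was 174 CPM in the library labelled saline and 27.9 CPM in the library labelled methamphetamine. The log2 difference was -0.03 ± 0.39 with all libraries (edgeR adjusted p = 0.973) and 0.47 ± 0.32 without replicate 5 (adjusted p = 0.390). For Nfil3, saline libraries held 20.3, 18.7, 14.3, 10.4 and 11.7 CPM and methamphetamine libraries 14.7, 17.9, 15.4, 12.7 and 10.8 CPM, with replicate 5 at 10.6 and 23.0 CPM. These groups overlapped throughout, with a log2 difference of 0.13 ± 0.20 with all libraries and -0.07 ± 0.19 without replicate 5 (edgeR adjusted p = 0.753 and 0.851). The males of day 11 came from 2 runs of rat numbers, with every saline rat numbered under 4000 and every methamphetamine rat above. Number series and treatment therefore cannot be told apart for any gene in these males. Differences of effects that use these males carry the same limit.

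After abstinence in females, no member differed between treatments by the test, and the rats within each group differed several-fold. Dbp in saline was 30.4, 99.6, 105, 136 and 22.8 CPM, with replicate 5 at 109 CPM. In methamphetamine it was 45.4, 29.5, 81.5, 187 and 161 CPM, with replicate 5 at 117 CPM. The groups overlapped over most of their range, and the log2 difference was 0.31 ± 0.47 with all libraries and 0.35 ± 0.55 without replicate 5 (edgeR adjusted p = 0.997 and 0.994). Tef ran from 74.8 to 132 CPM in saline and from 64.4 to 203 CPM in methamphetamine, replicate 5 aside, and replicate 5 held 222 and 146 CPM. Its log2 difference was 0.13 ± 0.29 with all libraries and 0.34 ± 0.29 without replicate 5.

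Nfil3 showed the least overlap of the members in these females, with 25.5, 16.5, 16.1, 15.3 and 24.0 CPM in saline and 15.2, 21.6, 13.6, 12.0 and 9.69 CPM in methamphetamine. Replicate 5 held 16.0 and 11.5 CPM. Of the 6 methamphetamine libraries, 5 lay below every saline library, and replicate 2 lay inside the saline range. The log2 difference was -0.44 ± 0.19 with all libraries and -0.44 ± 0.22 without replicate 5 (edgeR adjusted p = 0.997 and 0.994). No gene passed here by edgeR in either setting (0% of 13545 with 523 at an unadjusted p under 0.05, and 0% of 13610 with 541), against 26 by DESeq2 with all libraries. The markers Myl4 and Ptprc reached 34.6 and 74.6 CPM in the female methamphetamine group after abstinence, against at most 4.61 and 24.0 CPM in saline, and their part in these values was not tested.

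After abstinence in males, Nfil3 was lower after methamphetamine and stood first among all genes by p-value in both settings. It measured 28.4, 26.5, 30.0, 28.0 and 30.6 CPM in saline and 14.8, 13.5, 12.3, 12.3 and 18.5 CPM in methamphetamine. Replicate 5 was 22.9 CPM in the library labelled saline and 21.9 CPM in the library labelled methamphetamine, between the groups, so that all 6 methamphetamine libraries still lay below all 6 saline libraries. The log2 difference was -0.84 ± 0.13 with all libraries, just short of the threshold (edgeR adjusted p = 0.103), and Nfil3 fell by 1.01 ± 0.11, 2.01-fold, without replicate 5 (adjusted p = 0.00222). The means without replicate 5 were 28.7 ± 1.63 and 14.3 ± 2.57 CPM (SD, n = 5 each).

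Dbp rose in the same hearts once replicate 5 was left out. Saline libraries held 12.1, 16.6, 12.9, 11.3 and 10.5 CPM and methamphetamine libraries 62.2, 86.8, 70.9, 96.5 and 14.5 CPM. Replicate 5 held 99.5 CPM in the library labelled saline and 14.7 CPM in the library labelled methamphetamine. In methamphetamine, 4 of 5 libraries lay above every saline library, and replicate 6 lay inside the saline range. The log2 difference was 1.07 ± 0.59 with all libraries (edgeR adjusted p = 0.999) and Dbp rose by 2.38 ± 0.36, 5.21-fold, without replicate 5 (adjusted p = 0.0293), the fourth lowest p-value of 13621 genes.

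Tef in these males had the smallest difference of the activators. It was 104, 96.7, 86.9, 100.5 and 114 CPM in saline and 109, 132, 127, 168 and 103 CPM in methamphetamine, and replicate 5 held 251 and 69.8 CPM. Of the 5 methamphetamine libraries, 3 lay above every saline library, and the log2 difference was -0.09 ± 0.24 with all libraries and 0.34 ± 0.11 without replicate 5 (edgeR adjusted p = 0.999 and 0.521). Without replicate 5, 2 of 3 members passed, where 0.103% of all genes did, 14 in number. With all libraries 0% of 13606 genes passed by edgeR.

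**Figure D2:**
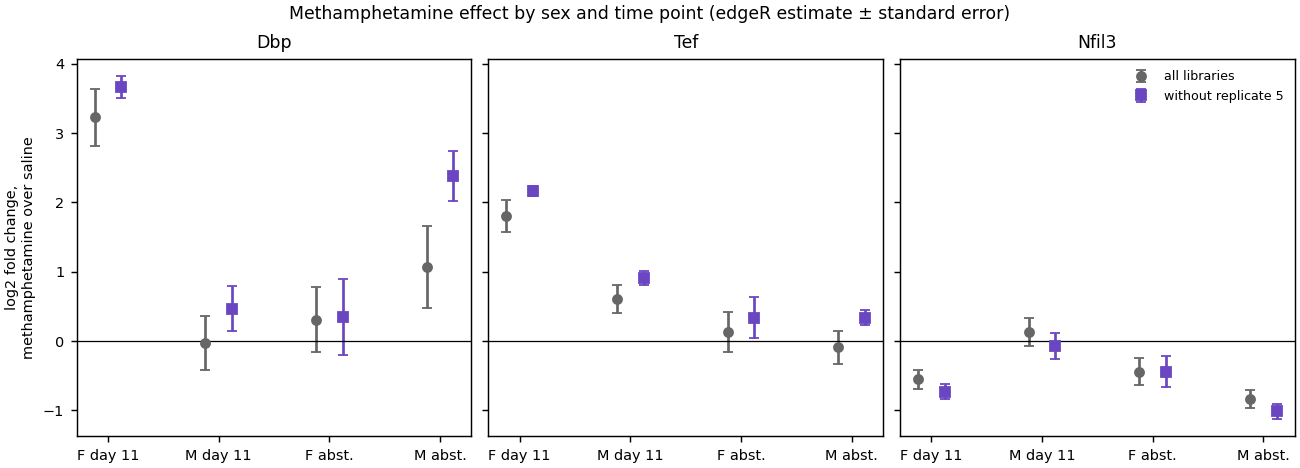
Methamphetamine effect on Dbp, Tef and Nfil3 by sex (F, M) and time point (abst., abstinence): edgeR log2 fold change of methamphetamine over saline, with bars of 1 standard error. Circles use all libraries and squares leave out replicate 5. Without replicate 5, Dbp stands highest in females at day 11 (3.66), followed by Dbp in males after abstinence (2.38) and Tef in females at day 11 (2.16). Leaving out replicate 5 moves every estimate in males and every day 11 estimate in females, where Tef goes from 1.80 to 2.16.

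Whether these effects differed between sexes and time points was tested as a difference of effects. At day 11 the effect on Dbp was larger in females than in males by 3.25 ± 0.63 on the log2 scale with all libraries (edgeR adjusted p = 0.0798) and by 3.19 ± 0.43 without replicate 5 (adjusted p = 0.000482). For Tef the female effect exceeded the male effect by 1.18 ± 0.33 (adjusted p = 0.294) and, without replicate 5, by 1.25 ± 0.14 (edgeR adjusted p = 4.34e-05). The Nfil3 effects differed by -0.69 ± 0.26 and -0.66 ± 0.23, female minus male, and did not pass (edgeR adjusted p = 0.583 and 0.316). This difference was called for 1 of 3 members with all libraries and for 2 of 3 without replicate 5, against 0.119% and 0.795% of all genes. With all libraries the Dbp call held in 4 of 23 fits that left out 1 library and in 8 of 14 alternatives. In females, the day 11 effect exceeded the effect after abstinence for Dbp by 2.92 ± 0.69 (edgeR adjusted p = 0.103) and, without replicate 5, by 3.30 ± 0.69 (adjusted p = 0.0212). Tef gave 1.67 ± 0.40 (edgeR adjusted p = 0.114) and 1.82 ± 0.34 (adjusted p = 0.0128), so that 0 of 3 members were called with all libraries, where 0.233% of genes were, and 2 of 3 without replicate 5, where 1.23% were. The Nfil3 effects in females differed between time points by -0.09 ± 0.25 with all libraries and -0.29 ± 0.26 without replicate 5 (edgeR adjusted p = 0.974 and 0.863).

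The same differences were taken in males. The effect on Nfil3 at day 11 minus that after abstinence was 0.97 ± 0.25 with all libraries (edgeR adjusted p = 0.171) and 0.93 ± 0.23 without replicate 5 (adjusted p = 0.0922), where 0.149% and 0.618% of genes were called. It was -1.10 ± 0.77 and -1.92 ± 0.54 for Dbp (edgeR adjusted p = 0.621 and 0.147) and 0.70 ± 0.34 and 0.56 ± 0.16 for Tef (adjusted p = 0.494 and 0.165). Between females and males after abstinence no member passed in either setting, with 0% of genes called by edgeR in both. The closest was Dbp at -2.03 ± 0.73, female minus male, without replicate 5 (edgeR adjusted p = 0.742). Comparisons of effects at day 11 and after abstinence in 1 sex, and of the sexes at 1 time point, reuse the same libraries. They are not independent of each other, and those with the males of day 11 carry the split by rat number given above.

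The level of each gene was then ordered over the 8 groups. Without replicate 5, mean Dbp was lowest in saline females at day 11 (12.1 CPM) and saline males after abstinence (12.7 ± 2.38 CPM, SD, n = 5), whose libraries overlapped. Next came methamphetamine males after abstinence at 66.2 ± 31.8 CPM, saline males at day 11 at 69.8 ± 39.7 CPM, saline females after abstinence at 78.9 ± 49.8 CPM and methamphetamine females after abstinence at 101 ± 70.1 CPM (SD, n = 5 each). Methamphetamine males at day 11 (97.3 ± 29.6 CPM) and methamphetamine females at day 11 (153 CPM) closed the order, which was set on mean log2 CPM. Tef was lowest in saline females at day 11 (64.6 CPM), held between 100.2 and 135 CPM in the other saline groups and both methamphetamine groups after abstinence, and rose to 213 ± 22.9 CPM (SD, n = 5) in methamphetamine males and 289.8 CPM in methamphetamine females at day 11. For Nfil3 the 2 highest groups were those where Dbp was lowest, saline females at day 11 (28.3 CPM) and saline males after abstinence (28.7 CPM), while the other 6 groups lay between 14.3 and 19.5 CPM. Over the 21 pairs of neighbours in the 3 orders, two-sided exact permutation tests on log2 CPM gave a lowest adjusted p of 0.5 with all libraries. Without replicate 5 the lowest adjusted p of these permutation tests was 0.0833. It was reached for Dbp between saline and methamphetamine males after abstinence and for 3 neighbour pairs of Tef that did not overlap. The first Tef pair was saline females at day 11 below saline males after abstinence. The others were methamphetamine males after abstinence below those at day 11, and methamphetamine males below methamphetamine females at day 11. Their raw permutation p was 0.0159, 0.00794 and 0.00794 in this order, the smallest that groups of these sizes can give. The adjusted p of these Tef pairs therefore cannot show how far apart the groups lie.

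Activators and repressor were then set against each other library by library. The log2 ratio of Dbp to Nfil3 CPM was negative in saline females at day 11 (mean -1.24 ± 0.36, SD, n = 4, replicate 5 aside) and in saline males after abstinence (-1.20 ± 0.32, SD, n = 5). In the matching methamphetamine groups it was 3.15 ± 0.40 and 1.98 ± 1.34 (SD, n = 5 each). Saline males at day 11 and saline females after abstinence already stood at 2.09 ± 1.11 and 1.73 ± 1.51, against 2.72 ± 0.75 and 2.53 ± 1.55 after methamphetamine. Single libraries in groups with a positive mean were also negative. They were replicate 6 of methamphetamine males after abstinence (-0.35) and replicate 6 of saline females after abstinence (-0.07). The log2 ratio of Tef to Nfil3 kept the same sign in all libraries and went from 1.19 ± 0.31 in saline females at day 11 to 4.10 ± 0.20 after methamphetamine, and from 1.80 ± 0.15 to 3.16 ± 0.49 in males after abstinence. In replicate 5 the Dbp ratio was 0.00 in the library labelled female saline and -0.27 in that labelled female methamphetamine at day 11, and 4.04 and 0.28 in those labelled male saline and male methamphetamine. After abstinence it was 2.76 and 3.35 in the libraries labelled female saline and female methamphetamine, and 2.12 and -0.58 in those labelled male saline and male methamphetamine. These ratios carry no test, because the genes were chosen with results known, and a ratio of CPM values does not compare molecules of the genes.

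Within groups the 3 genes also moved together from rat to rat. After the group mean was taken off log2 CPM, Dbp and Tef correlated with r = 0.87 and rho = 0.83 over 47 libraries, Dbp and Nfil3 with r = -0.84 and rho = -0.84, and Tef and Nfil3 with r = -0.79 and rho = -0.76. Each had a permutation p of 1e-05, raw and adjusted over the 3 pairs, the smallest that the 100000 permutations within groups can give. Without the 2 libraries farthest on the x axis r was 0.82, -0.85 and -0.75. Without replicate 5 the correlations over 39 libraries were 0.77, -0.80 and -0.73 (rho 0.66, -0.77 and -0.72, permutation adjusted p for r of 4e-05 each).

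The correlations were also taken within each time point. After abstinence, over 20 libraries without replicate 5, r was 0.84 for Dbp with Tef, -0.92 for Dbp with Nfil3 and -0.89 for Tef with Nfil3 (permutation adjusted p of 8e-05 each, rho 0.87, -0.93 and -0.88). At day 11, over 19 libraries without replicate 5, r was 0.39, -0.66 and -0.51 (permutation adjusted p of 0.213, 0.0675 and 0.132, rho 0.22, -0.58 and -0.58), and none of the 3 pairs passed at 0.05. With replicate 5 the day 11 values over 23 libraries were 0.85, -0.80 and -0.74, so at day 11 the relation of the activators rests on replicate 5. The difference between time points was not tested. The females after abstinence came from both runs of rat numbers, a split that taking off the group mean leaves in. With methamphetamine, Dbp was 45.4, 29.5 and 81.5 CPM in replicates 1, 2 and 3 (lower run). Replicates 4 and 6 held 187 and 161 CPM. With saline, replicate 1 (lower run) held 30.4 CPM. Replicates 2, 3, 4 and 6 held 99.6, 105, 136 and 22.8 CPM. The part of the number run in these correlations was not tested.

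**Figure D3:**
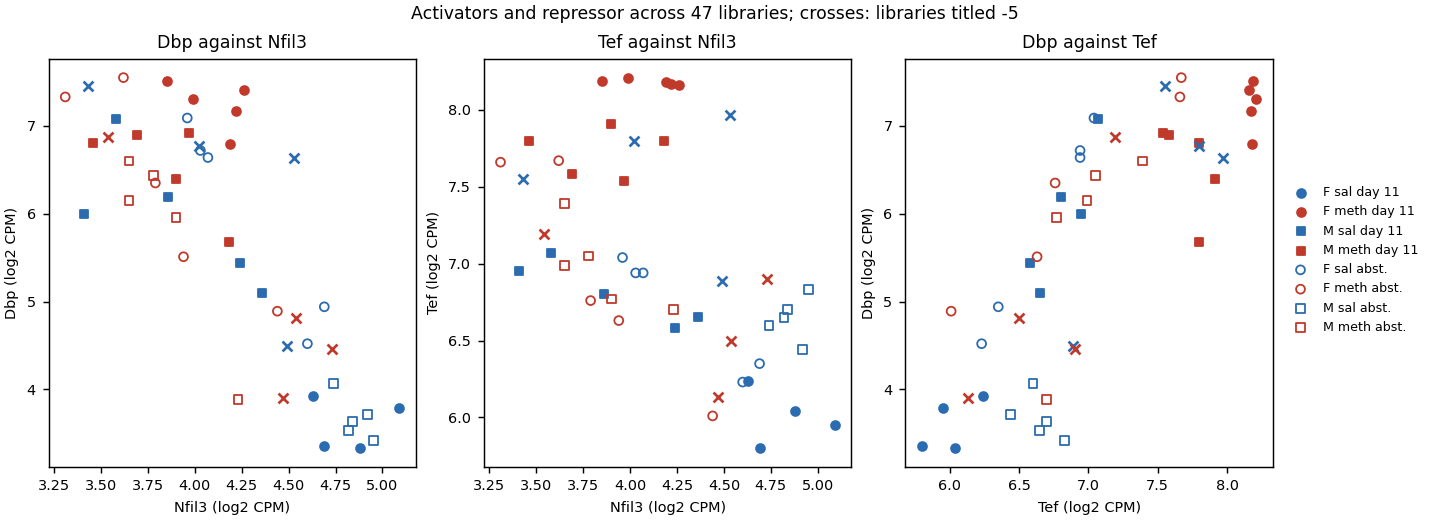
Each of the 47 libraries by the log2 CPM of Nfil3 and Dbp (left), Nfil3 and Tef (middle) and Tef and Dbp (right). Blue is saline and red methamphetamine, circles are female and squares male, filled is day 11 and open is abstinence, and crosses are replicate 5. Dbp falls as Nfil3 rises over the whole set, whereas the 5 methamphetamine females at day 11 form a level row near the top for Tef.

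Other genes of the circuit were read from lists of clock and output genes. Of 27 listed genes, 11 could be matched, because symbols came from the study's own tables, which name mainly genes called in these libraries. The lists are therefore not independent evidence of a direction or of how many genes are called. Shares over all genes are printed beside them for scale only and do not show enrichment. HLF, the remaining PAR bZIP activator, was not matched. In females at day 11, 7 of the 11 rose, 3 fell and 1 was not called, with or without replicate 5, against 4.18% and 9.43% of all genes. Of the 5 clock genes reported elsewhere to carry D-boxes, 4 rose: the clock repressors Per2 (2.60 ± 0.30) and Per3 (3.05 ± 0.37) and the REV-ERB genes Nr1d1 (0.99 ± 0.23) and Nr1d2 (1.46 ± 0.26), all on the log2 scale with all libraries (edgeR adjusted p from 0.00108 to 0.0316). Without replicate 5 they rose by 2.75, 3.45, 1.29 and 1.87. Cry1, a clock repressor with a D-box in its promoter in mice, gave 0.08 ± 0.14 (edgeR adjusted p = 0.884), and -0.02 ± 0.10 without replicate 5. The median of the 5 was 1.46 with all libraries, against 0.00 over all genes tested.

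Of the 4 other core clock genes, the activators Arntl (Bmal1), Clock and Npas2 fell, by 2.52 ± 0.72, 0.80 ± 0.17 and 2.14 ± 0.39, and Cry2, a repressor, rose by 0.72 ± 0.09 in females at day 11 with all libraries (edgeR adjusted p from 0.00108 to 0.0853). Without replicate 5 Arntl fell by 5.12 ± 0.15, Clock by 1.03 ± 0.08 and Npas2 by 3.01 ± 0.11, and Cry2 rose by 0.82 ± 0.06. Both output genes rose, Por, the electron donor of cytochrome P450 enzymes, by 0.44 ± 0.08 and the ubiquitin protease Usp2 by 1.08 ± 0.18 (0.46 and 1.21 without replicate 5). In males at day 11, 0 of 11 passed with all libraries. Without replicate 5, Per2, Per3, Cry2 and Usp2 rose (by 1.14, 0.88, 0.53 and 0.78) and Arntl and Npas2 fell (by 1.76 and 1.79), which makes 6 of 11 against 6.54% of all genes, each estimate being smaller in size than that in females without replicate 5. With all libraries these 6 genes gave 0.78, 0.49, 0.32, 0.32, -0.70 and -0.93 in the same order. In these males number series and treatment cannot be told apart. The difference of effects between the sexes was called at day 11 for 7 of the 11 without replicate 5, against 0.795% of all genes, and for 1 with all libraries, against 0.119%.

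In males after abstinence, where Dbp rose and Nfil3 fell without replicate 5, 4 of the 11 passed in that setting, against 0.103% of all genes. Per3 (1.58 ± 0.30), Nr1d1 (1.86 ± 0.23) and Nr1d2 (1.21 ± 0.17) rose and Cry1 fell by 1.02 ± 0.17 (edgeR adjusted p from 0.00521 to 0.0987), while Arntl, Clock and Npas2 gave -1.01, -0.21 and -0.67 and did not pass. With all libraries the same 4 genes gave 0.24, 1.51, 0.67 and -0.86, and 0 of 11 passed in these males, and in females after abstinence 0 of 11 passed in either setting.

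**Figure D4:**
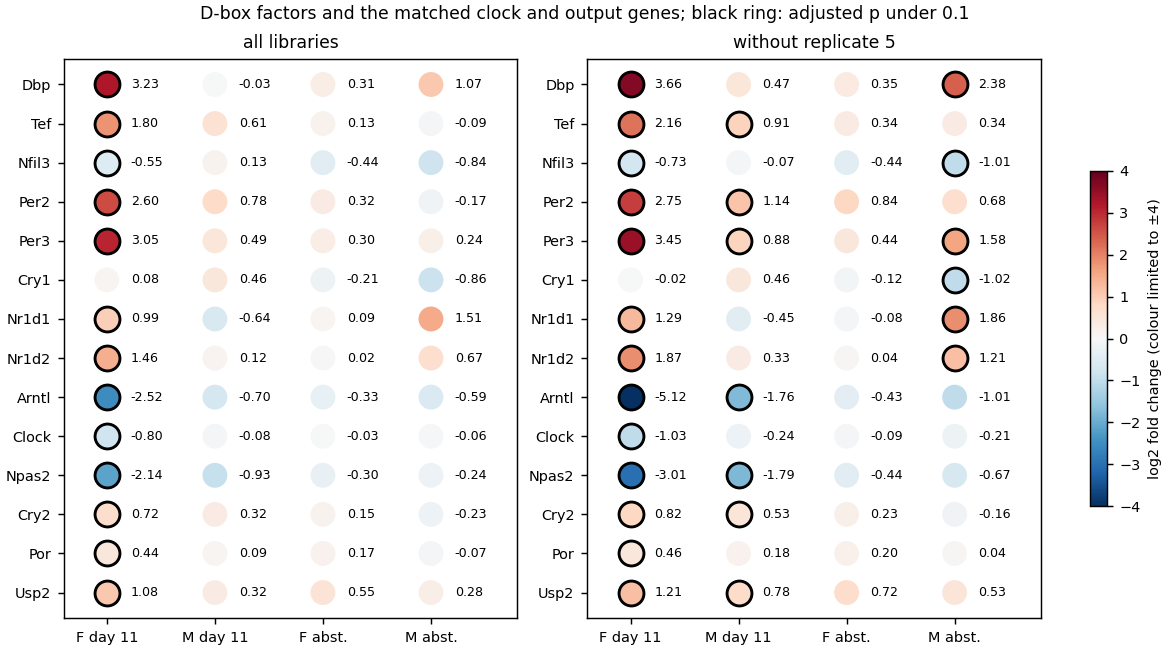
Log2 fold change of methamphetamine over saline (number and colour) for the 3 D-box factors and the 11 matched genes in each sex (F, M) and time point (abst., abstinence), with all libraries (left) and without replicate 5 (right). A black ring marks an edgeR adjusted p under 0.1. In females at day 11 all genes but Cry1 are ringed in both panels, and in males after abstinence rings appear for Dbp, Nfil3, Per3, Cry1, Nr1d1 and Nr1d2 without replicate 5.

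Across the 39 libraries other than replicate 5, the genes with the most similar and the most opposed pattern were listed for each member among those that passed the filter. Likeness was the Pearson correlation of log2 CPM, without a test, and points share their group, pool and treatment. Dbp was most like Nr1d2 (0.96), Per3 (0.95) and Ephx1 (0.85), an epoxide hydrolase, with a pair of genes without a matched symbol at 0.96 and 0.94, and most opposed to Medag and Ckap4 (-0.88 each), Nfil3 and Cdkn1a (-0.83 each) and Fibin (-0.82). Tef was most like Per2 (0.94), Mid1ip1 (0.91), Per3 and Rhobtb1 (0.90 each) and Pik3ip1 (0.88). It was most opposed to Col5a3 and Npas2 (-0.95 each), Arntl (-0.94), Mmp14 (-0.91) and Slc41a3 (-0.90). Nfil3 was most opposed to Dbp (-0.83), Nr1d2 (-0.81) and, among genes with a symbol, Cdc42ep2 (-0.77), and its most similar gene without a matched symbol reached 0.78. Dbp and Tef correlated at 0.79 and Tef and Nfil3 at -0.58 in this measure, and Cry1 correlated at 0.63 with Nfil3, -0.43 with Dbp and 0.02 with Tef.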

How the data were processed

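RNA sequencing of the left ventricle was analysed in 47 libraries of 8 groups. The authors deposited unnormalized read counts per Ensembl gene and a normalized signal. Division of the counts by a single size factor per library (0.696 to 1.29) gave the deposited signal back, and it served only in alternatives. Per the labels, reads were trimmed with Trimmomatic 0.38 and aligned to Rnor_6.0 with HISAT2 2.1.0, and the study tested with DESeq2 1.20.0. Symbols of 328 genes came from the study's tables, whose fold changes and p-values were not used. Positions on Rnor_6.0 were not used here, and promoters are those of RefSeq on GRCr8.

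Groups came from the labels, which name separate rats. Counts were fitted with edgeR 4.0.16 (R 4.3.3, TMM factors, filterByExpr, quasi-likelihood test) on the libraries of each comparison, with Benjamini-Hochberg adjustment over all genes tested and a call at adjusted p under 0.1. The standard error is the size of the estimate divided by the root of its F statistic. Levels are CPM with TMM factors over all libraries, and log2 CPM used a prior count of 2. Alternatives were DESeq2 1.42.0, limma 3.58.1 on weighted counts and on the normalized signal (pseudocount 1 or 0.1), other filters and factors, 1 fit over all libraries, a replicate block and leaving out libraries. For the females after abstinence, the rat number series was also fitted as a block, and no gene passed. DESeq2 without replicate 5 was added after the data were seen. The fitting scripts were tested on simulated data. Named are the 3 members, the listed genes that could be matched, and for each member the 5 genes with the highest and the 5 with the lowest correlation over the libraries other than replicate 5, of which those with a symbol are printed, except 1 result that is not reported here. The members and lists were chosen with earlier results of these data known. Counting error limits Nfil3, with at least 88 counts per library, and the lowest Dbp libraries, with at least 91.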

Additional observations from a re-analysis of the deposited data

Results flagged for a closer look

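Over the 24 gene and group combinations of Dbp, Tef and Nfil3, 4 values lay beyond Dixon's critical value for their group. Chance gives about 1 in 20. All 4 come from replicate 5. The Dbp and Tef values labelled male saline, abstinence, are of the same library, so the 4 are not independent. Dbp was 99.5 CPM in the library labelled male saline, abstinence, replicate 5, against at most 16.6 CPM in the others of its group. Tef was 119.6 CPM in the library labelled female methamphetamine, day 11, replicate 5, against at least 286 CPM in the others. In the library labelled male methamphetamine, day 11, replicate 5, Tef was 90.0 CPM, against at least 186 CPM in the others. Tef was 251 CPM in the library labelled male saline, abstinence, replicate 5, against at most 114 CPM in the others. These are libraries whose sex-specific genes went against their sex labels, and the part of any mix-up in the values was not tested.

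Effects of methamphetamine that differed between groups by an edgeR test of the difference itself, with all libraries, were those on Dbp between females and males at day 11 (female minus male 3.25 on the log2 scale) and on Per3 in the same comparison (2.55). The effect on Per3 in females was also larger at day 11 than after abstinence, by 2.75. In males, the effect at day 11 minus that after abstinence was 1.32 for Cry1 and -2.15 for Nr1d1.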

How the results depend on the processing

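The Dbp and Tef increases in females at day 11 passed under all 14 alternatives (Dbp 3.01 to 3.67 and Tef 1.77 to 2.18 on the log2 scale) and without any 1 library. Nfil3 in females at day 11 lost its call in 1 fit over all libraries (-0.54), at an adjusted p under 0.05 (-0.55) and without saline replicate 1 or 2 or methamphetamine replicate 1, 2, 3 or 4 (range over all single libraries left out -0.67 to -0.46). The call counts behind these values moved from 581 to 1319 in females at day 11, from 0 to 908 in males at day 11 and from 0 to 14 in males after abstinence when replicate 5 was left out. Cry1 in females at day 11 changed sign without replicate 5 (-0.02 by edgeR, -0.01 by DESeq2) and with limma quality weights (-0.04, and -0.04 to 0.19 over single libraries left out). The causes were not tested.

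Without replicate 5, estimates in males at day 11 became 0.47 (DESeq2 0.48) for Dbp, 0.91 (0.91) for Tef and -0.07 (-0.07) for Nfil3, so that Dbp and Nfil3 changed sign and Tef passed. After abstinence in males they became 2.38 (2.38) for Dbp, 0.34 (0.34) for Tef and -1.01 (-1.01) for Nfil3, so that Tef changed sign and the others passed. The female minus male difference at day 11 passed for Tef at 1.25 (1.25), and after abstinence it became 0.00 for Tef. The day 11 minus abstinence difference passed in females for Dbp at 3.30 (3.30) and Tef at 1.82 (1.82), and in males for Nfil3 at 0.93 (0.94), with Dbp at -1.90 and Tef at 0.57 passing by DESeq2 alone. In the group order, differences of neighbours changed sign without replicate 5 for Dbp (-0.02 and -0.21), Tef (-0.33) and Nfil3 (-0.05 and 0.00).

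Limma with quality weights gave 0.44 for Dbp and 0.76 (passing) for Tef in males at day 11, 0.17 for Tef and -0.96 (passing) for Nfil3 in males after abstinence, and 1.25 (passing) for the Tef difference between sexes at day 11. Its day 11 minus abstinence differences were 2.64, 1.64 and 0.08 for Dbp, Tef and Nfil3 in females (the first and second passing, the third with its sign changed) and 0.99 (passing) for Nfil3 in males. On the normalized signal limma gave 0.04 for Dbp in males at day 11 with either pseudocount and without a filter, -0.86 and -0.87 (passing) for Nfil3 in males after abstinence, and 2.97, 2.98 and 2.97 (no longer passing) for the Dbp difference between sexes. DESeq2 with all libraries passed Nfil3 in males after abstinence (-0.84) and the day 11 minus abstinence differences of Dbp (2.91), Tef (1.67) and, in males, Nfil3 (0.98). Without a low-count filter Nfil3 in males after abstinence (-0.84), Dbp (2.92) and Tef (1.67) passed likewise, as did the last pair in 1 fit over all libraries (2.92 and 1.67). The Dbp difference between sexes, 3.25, did not pass in that fit or at an adjusted p under 0.05.

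Correlations of the deviations of same-numbered saline and methamphetamine libraries ran from -0.418 to 0.309 and were not all over 0.1 in any comparison, so replicate numbers were not taken as pairs, although the replicate 5 pairs were positive in all 4 (0.186 to 0.309). With a replicate block the estimates were -0.56 for Nfil3 in females at day 11 (no longer passing), 0.11 for Dbp in males at day 11, -0.85 (passing) for Nfil3 in males after abstinence and 3.22 (no longer passing) for the Dbp difference between sexes. With the replicate block and without replicate 5, males at day 11 gave 0.56, 0.91 and -0.06 for Dbp, Tef and Nfil3, and males after abstinence 2.22, 0.33 and -1.02. In that fit the Tef difference between sexes was 1.28 at day 11 and -0.03 after abstinence, the day 11 minus abstinence differences were 3.40 and 1.88 for Dbp and Tef in females and 0.95 for Nfil3 in males, and Cry1 in females at day 11 was -0.01.

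Leaving out single libraries gave -0.20 to 0.28 for Dbp, 0.54 to 0.76 for Tef and 0.00 to 0.25 for Nfil3 in males at day 11, where Tef passed without saline replicate 5 (0.76). Tef ran from -0.02 to 0.36 in females after abstinence, and in males after abstinence Tef ran from -0.22 to 0.23 and Nfil3 from -0.96 to -0.78, passing without saline replicate 5 (-0.89) or methamphetamine replicate 5 (-0.96) or 6 (-0.90). The sex differences at day 11 ran from 2.94 to 3.47 for Dbp, which passed in 4 of 23 fits, and from 1.03 to 1.40 for Tef, which passed without female methamphetamine replicate 5 (1.33). In females the day 11 minus abstinence differences ran from 2.72 to 3.18 for Dbp, 1.43 to 1.89 for Tef and -0.22 to 0.06 for Nfil3. For the 3 members and their comparisons, 504 of the values under an alternative kept their direction and side of the threshold, 57 newly passed, 34 no longer passed and 29 changed sign.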
